A study of Mus musculus with 27 samples.

Results

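The 10 cone phototransduction genes did not come on together in the developing mouse retina. The 2 subunits of the cone cyclic nucleotide-gated channel, Cnga3 and Cngb3, and the transducin gamma subunit Gngt2 had passed 50% of their adult level by embryonic day 17 (E17). The transducin beta subunit Gnb3 passed it by postnatal day 6 (P6), as did the phosphodiesterase subunit Pde6c, though by a margin that another scaling removed. The opsins Opn1sw and Opn1mw, the transducin alpha subunit Gnat2 and the inhibitory phosphodiesterase subunit Pde6h followed by P15, and cone arrestin, Arr3, by P28. With all libraries in, none of the 9 rod counterparts analysed had reached 50% of its adult mean before P15. Gnb1 stood close to it, at 47.8% at P6, and passed it there without 1 of the P60 libraries.

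The members were fixed by name: every entry of the expression table whose symbol was Opn1sw, Opn1mw, Arr3, Gnat2, Gnb3, Gngt2, Pde6c, Pde6h, Cnga3 or Cngb3. Each symbol matched 1 entry, so the set held 10 genes of the 38168 features in the table, and all 10 passed the filter on low values. The levels come from 27 RNA-seq libraries of whole retina from wild type C57BL/6J mice, with 3 libraries at E14, 3 at E17, 4 at P1, 3 at P6, 4 at P15, 4 at P28 and 6 at P60. The labels give no treatment, and tissue was taken in the light phase from mice kept under alternating light and dark. According to the methods the mice were males at the later postnatal ages, and embryos and P1 pups were of mixed sex, so age and sex makeup cannot be told apart in steps that cross P1. The methods describe libraries as pools of several animals, except at P60, where 4 libraries were each made from 1 mouse and 2 were pooled, and which ones these were is not given in the sources used here.

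Values are CPM, which scale the reads of a gene to the reads of its whole library. The read totals behind the CPM, recovered from the values, ran from 7077781 to 11332323 per library with a median of 7969873. They are lower than the number of sequenced reads per library that the methods give. Against these totals 3 reads, taken as the limit that a count of 0 allows, correspond to 0.265 to 0.424 CPM. That limit covers counting error only. Defining markers of the labelled tissue were present, with Gnat1, the rod transducin alpha subunit gene, at 5424 to 6566 CPM in the 4 libraries at P28, while the summed CPM of 8 retinal pigment epithelium markers stayed between 3.79 and 67.9, of the 5 lens markers listed between 2.38 and 8.79, and of 6 blood markers between 10.9 and 50.6. At P60 the libraries fell apart: replicates 1 and 2 lay below all of replicates 3 to 6 for 5 members (Opn1sw, Opn1mw, Arr3, Gnb3 and Pde6c) and above them for Pde6h, as 16.1% and 21.7% of all features tested did, a split that was noticed in the data and has no label. It divides the libraries 2 against 4, as the pooling did, and whether it follows the pooling was not tested. Results that use P60 are given with and without these libraries where they changed. In RNA from a whole tissue, fewer cells of a type and less RNA per cell cannot be told apart.

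Cones are the photoreceptors of daylight and colour vision. In the cone outer segment a photon activates an opsin, which activates the G protein transducin (alpha subunit Gnat2, beta Gnb3, gamma Gngt2). Transducin relieves the inhibition that the small Pde6h subunit exerts on the catalytic phosphodiesterase Pde6c, cyclic GMP falls, and the channel formed by Cnga3 and Cngb3 closes. Arrestin Arr3 then binds the activated opsin and ends its signal. Rods run the same cascade with another set of genes, in which Gnat1, Gnb1, Gngt1, Pde6a, Pde6b, Pde6g, Cnga1, Cngb1 and Sag take the corresponding places. Gnb1 already had a mean of 433 CPM at E14, against 6.28 CPM for Sag, the next highest of these. Its level is thus not read as that of rods alone.

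The sequences upstream of 4 members are shown because these genes differed in when they rose: Opn1sw and Gnat2 had their first called rise at E17, Arr3 at P6 and Opn1mw at P15. Each is the RefSeq stretch of 250 bases before the annotated start in build GRCm38.p6, written 5′ to 3′ on the strand of the gene, and capitals mark matches on either strand to TAATCC or TAATCT, which are cores bound by the photoreceptor homeodomain factors Crx and Otx2, and to AGGTCA, the hexamer bound by nuclear receptors such as those for thyroid hormone and retinoids. These motifs were chosen after the windows had been read. The stretches lie at chr6:29380514-29380763 on the minus strand for Opn1sw, chrX:74127216-74127465 on the plus strand for Opn1mw, chr3:108092816-108093065 on the plus strand for Gnat2 and chrX:100605247-100605496 on the plus strand for Arr3. The starts used are those of RefSeq, whereas the gene spans given further on are those of GENCODE. For Opn1sw and Gnat2 the stretch lies inside the GENCODE span, so the starts differ between the annotations.
Opn1sw: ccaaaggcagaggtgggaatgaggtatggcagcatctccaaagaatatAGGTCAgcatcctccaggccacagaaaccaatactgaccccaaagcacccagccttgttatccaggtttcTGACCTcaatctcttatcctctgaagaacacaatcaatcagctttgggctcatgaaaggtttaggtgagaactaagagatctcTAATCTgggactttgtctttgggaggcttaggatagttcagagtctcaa
Opn1mw: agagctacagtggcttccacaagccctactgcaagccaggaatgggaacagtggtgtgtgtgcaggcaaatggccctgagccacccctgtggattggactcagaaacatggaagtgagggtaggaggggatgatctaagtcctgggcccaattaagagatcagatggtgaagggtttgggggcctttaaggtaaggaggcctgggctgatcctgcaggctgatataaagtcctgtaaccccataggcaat
Gnat2: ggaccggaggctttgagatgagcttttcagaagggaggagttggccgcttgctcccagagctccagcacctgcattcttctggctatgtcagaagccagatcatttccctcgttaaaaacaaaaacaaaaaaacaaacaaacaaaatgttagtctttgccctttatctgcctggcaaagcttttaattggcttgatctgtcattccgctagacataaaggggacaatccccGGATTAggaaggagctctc
Arr3: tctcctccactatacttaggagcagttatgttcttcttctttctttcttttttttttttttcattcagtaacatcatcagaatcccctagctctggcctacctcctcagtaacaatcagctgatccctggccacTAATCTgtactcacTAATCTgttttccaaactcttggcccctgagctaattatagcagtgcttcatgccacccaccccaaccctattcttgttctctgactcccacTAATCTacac

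The Opn1sw stretch held 1 match to TAATCT, 49 to 44 bases before the start, and 2 matches to AGGTCA. The Arr3 stretch held 3 matches to TAATCT, of which the nearest lay 10 to 5 bases before the start. The Gnat2 stretch held 1 match to TAATCC, on the opposite strand, 19 to 14 bases before the start, and the Opn1mw stretch held none of the 3 motifs, which says only that these letters are not in this window. The stretches of Pde6h and the 2 of Cnga3 also held no match. Among 32851 promoter stretches of the same length, 6.25% held TAATCC, 7.31% held TAATCT, 12.8% held either, 0.189% held 3 or more of these and 14.0% held AGGTCA. A match is a description of the sequence and does not show that a factor binds there. The table used had no stretch for Gnb3, Gngt2, Pde6c or Cngb3.

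**Figure D1:**
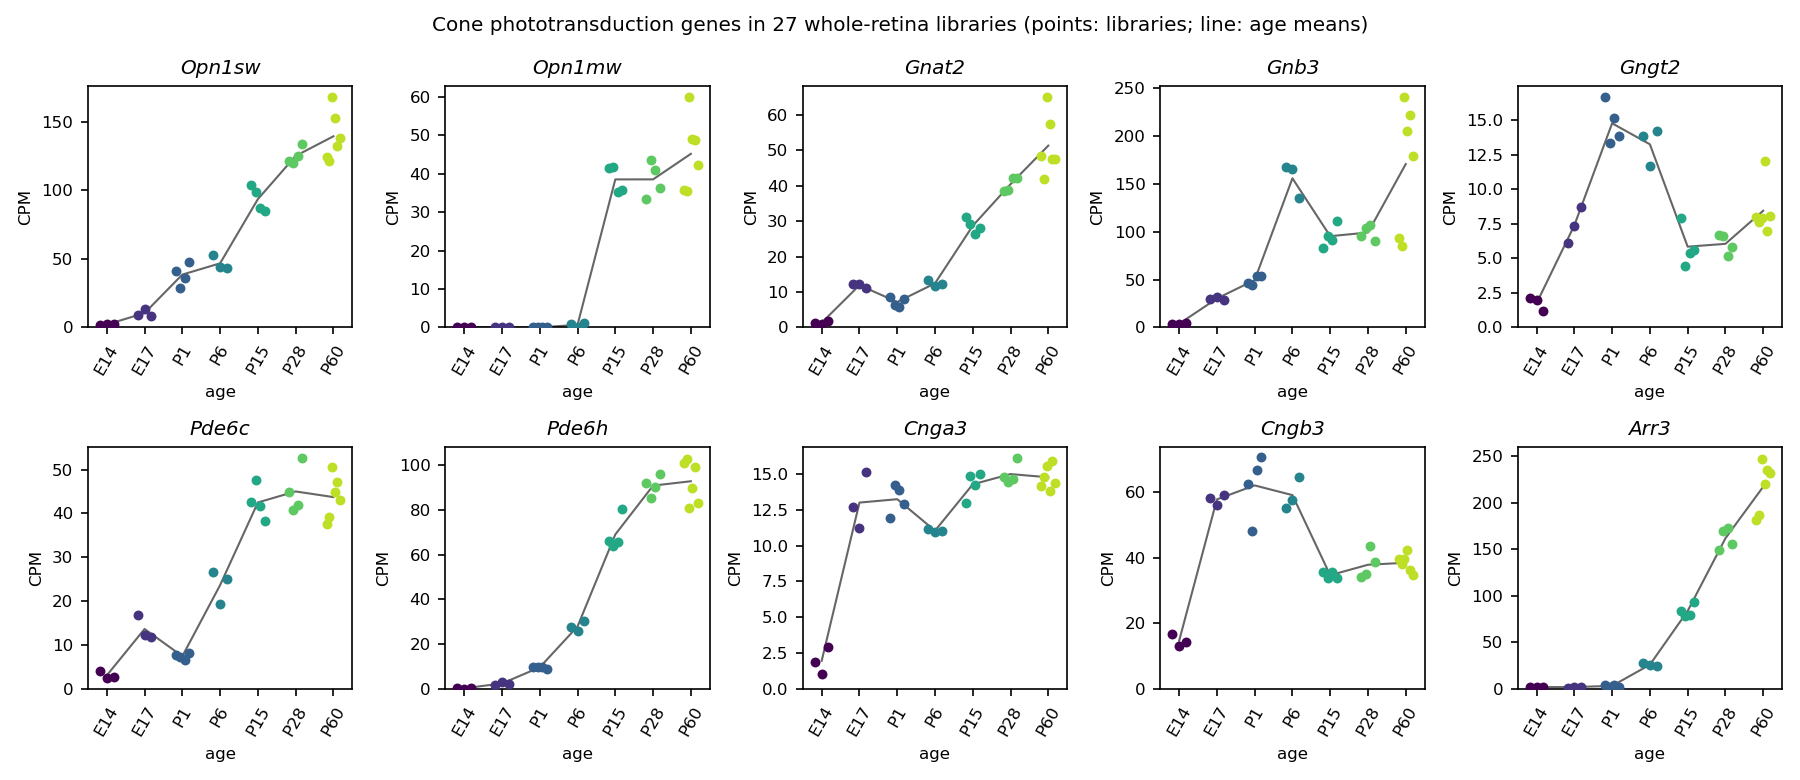
CPM of each of the 10 members (vertical axes, each from 0) against age (horizontal axes); points are the 27 libraries and lines join the age means. Opn1mw is near 0 through P6 and at 35.2 to 41.7 CPM at P15, Cngb3 and Gngt2 are highest at P1, and Gnb3 splits into 2 levels at P60.

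The opsin genes differed in when they first rose, by a call at E17 for Opn1sw and at P15 for Opn1mw, although both passed 50% of the adult level by P15. Opn1sw, which encodes the short-wavelength opsin (Gene ID 12057, chromosome 6, 29376671 to 29388468, minus strand), stood at 1.70, 2.43 and 2.32 CPM at E14 and at 9.30, 13.6 and 8.49 CPM at E17. It stood at 40.8, 29.0, 36.4 and 47.9 CPM at P1 and at 52.7, 44.3 and 43.2 CPM at P6. Libraries of E14, E17 and P1 did not overlap, while those of P1 and P6 did. Levels were 103, 98.5, 86.9 and 85.1 CPM at P15, 122, 119, 125 and 134 CPM at P28, and 121 to 168 CPM with a median of 135 at P60. On the log2(CPM + 1) scale, Opn1sw rose by 1.85 ± 0.15 (SE) at the step to E17 (limma, adjusted p = 7.82e-11) and by 1.79 ± 0.14 at the step to P1 (adjusted p = 8.64e-11). From P1 to P6 the difference of 0.29 ± 0.14 did not pass the test (adjusted p = 0.116). From P6 to P15 the difference was 0.99 ± 0.14 (adjusted p = 1.98e-06), just short of the minimum log2 fold change of 1 that was set for a call, and median-of-ratios scaling put it at 1.05 and edgeR at 1.07, both past it.

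Opn1mw, the medium-wavelength opsin gene (Gene ID 14539, chromosome X, 74127464 to 74150760, plus strand), had 0, 2 and 2 reads in the libraries of E14, 1, 0 and 0 at E17, 0, 0, 0 and 1 at P1, and 6, 1 and 8 at P6. Every library up to P1 and 1 of 3 at P6 was thus at or under 3 reads, and absence was not shown at this depth. At P15 the 4 libraries stood at 41.5, 41.7, 35.2 and 35.7 CPM, at P28 at 33.3, 43.7, 40.9 and 36.3 CPM, and at P60 they ran from 35.5 to 59.9 CPM with a median of 45.5. The switch from near 0 to the adult range thus fell between P6 and P15, with no overlap, and the rise was 4.60 ± 0.19 on the log2(CPM + 1) scale (adjusted p = 2.45e-18, limma). The P60 mean was at least 143-fold higher than the 0.316 CPM that 3 reads make in the shallowest E14 library. Between P1 and P6 the difference of 0.66 ± 0.19 (adjusted p = 0.00618) was too small for a call on the log2(CPM + 1) scale, which compresses low values, and a pseudocount of 0.1 gave 2.35 and edgeR 3.89, both calls.

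Once both opsins were present, their ratio moved over a narrow range. Per kilobase of annotated exon, Opn1sw exceeded Opn1mw by 1.48 ± 0.040 times (SD, n = 4) at P15, 2.0 ± 0.28 times (n = 4) at P28 and 1.91 ± 0.19 times (n = 6) at P60. The ratio of Opn1sw to Opn1mw was lower at P15 than at P60 in every library, by 0.36 on the log2 scale (exact permutation test over libraries, p = 0.00952, adjusted p = 0.0238). Opn1mw thus stood closer to its adult level at P15 (85.3% ± 7.9 of the P60 mean, against 67.1% ± 6.4 for Opn1sw). Against P60 replicates 3 to 6 these shares were 77.1% and 63.4%, and against replicates 1 and 2 they were 108% and 76.2%. The ratios per kilobase use exon lengths that merge all annotated transcripts, and 15.5% of the exon bases of Opn1sw lie over exons of Calu on the opposite strand. The mean of Calu was 133 CPM at E14 and 74.9 CPM at P60, the direction opposite to that of Opn1sw. Whether counting used the strand is not given in the sources used here.

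Of the transducin genes, Gnat2 had an early rise, a lower level at P1 and a second rise. The alpha subunit gene (Gene ID 14686, chromosome 3, 108092789 to 108101432, plus strand) stood at 1.30, 0.949 and 1.79 CPM at E14, 12.4, 12.4 and 11.1 CPM at E17, and 8.71, 6.30, 5.88 and 7.93 CPM at P1. Each P1 library lay below every E17 library and above every E14 library. Levels were 13.4, 11.7 and 12.3 CPM at P6, 31.3, 29.1, 26.4 and 28 CPM at P15, 38.6, 38.9, 42.2 and 42.1 CPM at P28 and 42.0 to 65.0 CPM with a median of 48.1 at P60. Gnat2 rose by 2.48 ± 0.15 between E14 and E17 (limma, adjusted p = 8.72e-14) and by 1.14 ± 0.14 between P6 and P15 (adjusted p = 1.33e-07). The dip at P1 (-0.67 ± 0.14, adjusted p = 0.00152) and the recovery by P6 (0.73 ± 0.14, adjusted p = 0.000105) passed the adjusted p but not the size threshold.

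Pde6c showed the same dip, as is described with the phosphodiesterase genes, and so did Thrb, the thyroid hormone receptor gene whose TRβ2 isoform is needed for Opn1mw expression in cones. The Thrb values are reads of the whole gene. They do not separate TRβ2 from the TRβ1 isoform, so the course of neither can be read from them. Thrb stood at 172, 153 and 163 CPM at E17, at 73.0, 57.2, 75.9 and 82.7 CPM at P1 and at 125, 113 and 117 CPM at P6. It fell by 1.17 ± 0.11 from E17 to P1 (adjusted p = 1.94e-09, limma), and its difference from P1 to P6 was 0.72 ± 0.11 (adjusted p = 2.28e-06). The other 8 members were not lower at P1 by the adjusted p.

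Gnb3, the beta subunit gene (Gene ID 14695, chromosome 6, 124834240 to 124840275, minus strand), stood higher at P6 than at P15 and P28 and split at P60. It stood at 4.0, 3.27 and 4.21 CPM at E14, 30.0, 32.3 and 28.5 CPM at E17, and 46.9, 44.0, 53.9 and 53.2 CPM at P1. These 3 ages did not overlap. At P6 it reached 167, 165 and 135 CPM, above every library of P1, P15 and P28, which for P15 were 83.1, 95.6, 91.3 and 111 CPM and for P28 95.0, 104, 107 and 90.1 CPM. Gnb3 rose by 2.7 ± 0.24 between E14 and E17 (limma, adjusted p = 4.04e-10) and by 1.63 ± 0.23 between P1 and P6 (adjusted p = 4.91e-07), and its P15 level differed from P6 by -0.70 ± 0.23 (adjusted p = 0.0155), under the size threshold.

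At P60 Gnb3 stood at 93.0 and 84.8 CPM in replicates 1 and 2 and at 240.3, 205, 222 and 179 CPM in replicates 3 to 6. The first pair lay in or just below the P28 range and the other 4 above every library of every other age. The P60 against P28 difference was 0.67 ± 0.19 (adjusted p = 0.0235), and it was 1.08 and past both thresholds without replicates 1 and 2. The share of the adult level reached by P6 depended on this split: 91.3% ± 10.7 of the P60 mean with all 6 libraries, 73.6% against replicates 3 to 6 and 175% against replicates 1 and 2, in which case Gnb3 had already passed 50% at P1. Against replicates 3 to 6 its means at P15 and P28 were at 45.1% and 46.9%, back under 50%.

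Gnb3 is also expressed by ON bipolar cells, which relay cone and rod signals, so the levels of ON bipolar markers are given beside it. Of 12 such markers, 8 rose and 0 fell by a call from P1 to P6 (12 of 12 had an adjusted p under 0.05, limma), and their summed CPM went from 648 to 710 at P1 to 1640 to 2039 at P6, 2574 to 2719 at P15 and 2131 to 2739 at P60. Grm6, the glutamate receptor of these cells, stood at 0 to 0.591 CPM at P1 and at 163, 135 and 122 CPM at P6. At P60 Grm6 stood at 126 and 111 CPM in replicates 1 and 2 and at 210, 193, 177 and 161 CPM in replicates 3 to 6, and Gpr179, which tethers the signalling complex next to this receptor, at 238 and 211 CPM and at 399, 346, 377 and 303 CPM in the same order. Of the 12 markers 4 divided in this way (Trpm1 and Gng13 were the others), 2 divided the opposite way (Gnao1 and Nyx) and 6 did not divide. The part of ON bipolar cells in the Gnb3 level was not tested.

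**Figure D2:**
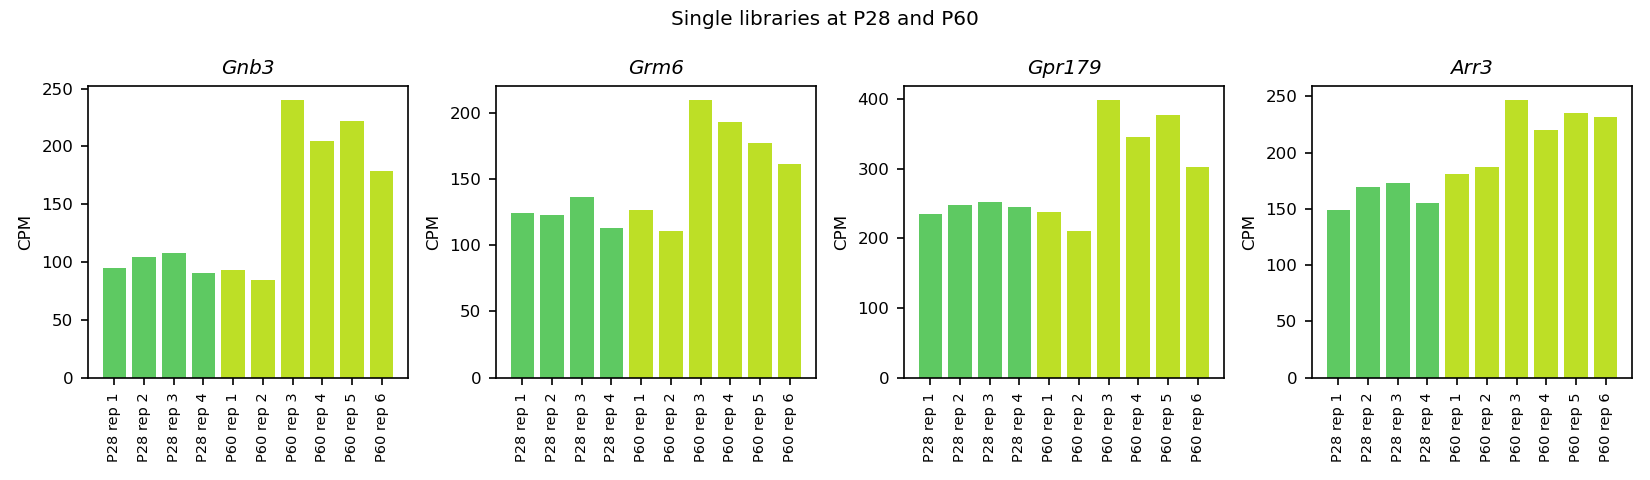
CPM (bars from 0) of Gnb3, of the ON bipolar genes Grm6 and Gpr179 and of Arr3 in each of the 4 libraries of P28 and the 6 of P60. Gnb3, Grm6, Gpr179 and Arr3 are each lower in P60 replicates 1 and 2 than in replicates 3 to 6, and for Arr3 replicates 1 and 2 still lie above every P28 library.

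Gngt2, the gamma subunit gene (Gene ID 14710, chromosome 11, 95837216 to 95845734, plus strand), was the only member with a fall that was a call. Cngb3 and Gnb3 were also lower at P15 than at P6 by the adjusted p, under the size threshold. Gngt2 stood at 2.10, 2.0 and 1.16 CPM at E14, 6.13, 7.32 and 8.70 CPM at E17 and 16.7, 13.4, 15.2 and 13.8 CPM at P1. At P6 it stood at 13.8, 11.7 and 14.2 CPM, at P15 at 7.90, 4.48, 5.35 and 5.64 CPM, at P28 at 6.66, 6.60, 5.14 and 5.78 CPM and at P60 at 7.01 to 12.0 CPM with a median of 7.95. Levels at P1 and P6 were thus above those of every later library, P60 replicate 4 at 12.0 CPM excepted, which exceeded 1 of the 3 P6 libraries. Gngt2 rose by 1.61 ± 0.20 between E14 and E17 (limma, adjusted p = 2.22e-07) and fell by 1.08 ± 0.18 between P6 and P15 (adjusted p = 2.24e-05); without P15 replicate 2 the fall was 0.98 and no longer a call.

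The exons of Gngt2 share 234 bases, 12.5% of its exon bases, with Abi3 on the opposite strand. Abi3 had a mean of 0.959 CPM at E14, 5.86 at E17, 10.7 at P1, 7.26 at P6, 5.84 at P15, 6.4 at P28 and 6.92 at P60, an order of ages much like that of Gngt2, and without strand information reads of the 2 genes over the shared bases cannot be told apart. Abi3 is known from microglia, and Gngt2 is also found in immune cells, so 12 microglial markers were summed, a list added after these levels had been seen. The sums ran from 24.9 to 28.3 CPM at E14, 19.9 to 22.0 at E17, 23.1 to 29.9 at P1 and 36.6 to 38.8 at P6. At P15 they lay between 28.6 and 34.5 CPM, at P28 between 22.8 and 28.5 and at P60 between 21.8 and 28.9. The sums were thus highest at P6 and lower at P15 with no overlap, the step at which Gngt2 fell, and lower at E17 than at E14, the step at which Gngt2 rose. The parts of shared reads and of microglia in the Gngt2 level were not tested.

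The catalytic subunit Pde6c preceded its inhibitor Pde6h. Pde6c (Gene ID 110855, chromosome 19, 38132781 to 38183958, plus strand) stood at 4.0, 2.53 and 2.74 CPM at E14, 16.9, 12.4 and 11.8 CPM at E17 and 7.73, 7.31, 6.56 and 8.28 CPM at P1. The P1 libraries lay between those of E14 and E17 with no overlap. Levels were 26.6, 19.4 and 25.1 CPM at P6, 42.7, 47.5, 41.6 and 38.2 CPM at P15, 44.9, 40.7, 41.9 and 52.5 CPM at P28 and 37.5 to 50.6 CPM with a median of 44.0 at P60. Pde6c rose by 1.84 ± 0.15 between E14 and E17 (limma, adjusted p = 8.11e-11) and by 1.53 ± 0.14 between P1 and P6 (adjusted p = 1.98e-10), with a dip between them of -0.78 ± 0.14 (adjusted p = 0.000277) that was under the size threshold. Its P15 level was already 97.2% ± 8.8 of the P60 mean, and libraries of P15, P28 and P60 overlapped.

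Pde6h (Gene ID 78600, chromosome 6, 136923832 to 136968865, plus strand) was the member with calls at the most consecutive steps. It stood at 0.300, 0.211 and 0.421 CPM at E14, where 2 of 3 libraries had no more than 3 reads, at 1.94, 3.09 and 2.38 CPM at E17, and at 9.93, 9.96, 9.95 and 8.87 CPM at P1. It then stood at 27.7, 26.0 and 30.2 CPM at P6, at 66.1, 63.9, 65.8 and 80.4 CPM at P15, at 91.9, 85.5, 90.1 and 96.0 CPM at P28 and at 80.7 to 103 CPM with a median of 94.7 at P60. No library of one age up to P28 overlapped the next. The rises were 1.39 ± 0.13, 1.63 ± 0.12, 1.44 ± 0.12 and 1.27 ± 0.12 at the 4 steps from E14 to P15 (adjusted p from 8.96e-12 to 5.71e-10, limma).

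Per kilobase of exon, the ratio of Pde6c to Pde6h was 15.5 ± 6.5 (SD, n = 3) at E17 and 2.05 ± 0.31 (n = 4) at P1. It was 2.23 ± 0.28 (n = 3) at P6, 1.65 ± 0.29 (n = 4) at P15, 1.31 ± 0.096 (n = 4) at P28 and 1.26 ± 0.25 (n = 6) at P60. At E14 it was not computed, since Pde6h had no more than 3 reads in 2 libraries. From E17 on, the excess of the catalytic over the inhibitory transcript was largest at E17, with a lowest library of 10.6 there against a highest of 2.53 at any later age. The merged exon length of Pde6h, 7846 bases, includes every annotated transcript, so the size of the ratio depends on that length and its course over ages does not. At P6 the ratio differed from P60 in every library (exact permutation test, p = 0.0238, adjusted p = 0.0275).

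The channel genes were near (Cnga3) or above (Cngb3) their adult level by E17, before either opsin had reached 10% of its own. Cnga3 (Gene ID 12790, chromosome 1, 37214434 to 37263384, plus strand) stood at 1.90, 1.05 and 2.95 CPM at E14 and at 12.7, 11.2 and 15.1 CPM at E17, 88.1% ± 13.4 of the P60 mean. All 21 later libraries, from P1 to P60, lay between 10.9 and 16.1 CPM. Cnga3 rose by 2.28 ± 0.16 between E14 and E17 (limma, adjusted p = 2.28e-12), and 0 later steps passed the adjusted p. Cngb3 (Gene ID 30952, chromosome 4, 19280850 to 19510623, plus strand) already stood at 16.9, 13.0 and 14.2 CPM at E14, 38.2% ± 5.2 of its P60 mean, the highest such share of any member.

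Cngb3 exceeded its adult level from E17 to P6. It stood at 58.3, 55.9 and 59.2 CPM at E17, 62.6, 48.2, 66.8 and 70.7 CPM at P1 and 55.1, 57.5 and 64.7 CPM at P6, and every one of these libraries lay above all 14 libraries of P15, P28 and P60, which ran from 33.7 to 43.6 CPM. Cngb3 rose by 1.91 ± 0.12 between E14 and E17 (limma, adjusted p = 1.52e-13), and its level at P15 differed from P6 by -0.75 ± 0.11 (adjusted p = 3.59e-06), under the size threshold. The ratio of Cnga3 to Cngb3 per kilobase of exon was 0.267 ± 0.033 (SD, n = 3) at E17, 0.261 ± 0.062 (n = 4) at P1 and 0.223 ± 0.019 (n = 3) at P6. It was 0.490 ± 0.045 (n = 4) at P15, 0.475 ± 0.052 (n = 4) at P28 and 0.459 ± 0.048 (n = 6) at P60. The 2 subunit genes thus changed their ratio between P6 and P15, with no overlap between the libraries up to P6 and those from P15 on, and the ratio at P6 differed from P60 by the exact permutation test (p = 0.0238, adjusted p = 0.0275).

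**Figure D3:**
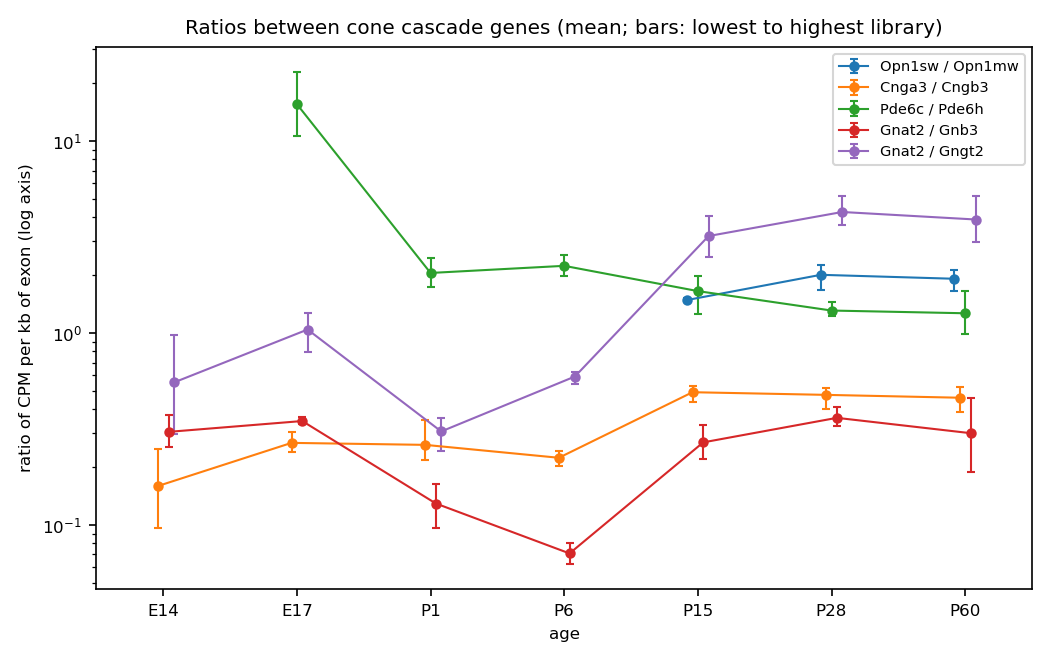
Ratio of CPM per kilobase of exon (log axis) between 5 pairs of members against age; points are means and bars run from the lowest to the highest library. Cnga3 over Cngb3 goes from 0.223 at P6 to 0.490 at P15, Pde6c over Pde6h from 15.5 at E17 to 1.26 at P60, and Gnat2 over Gngt2 from 0.306 at P1 to 3.89 at P60; pairs are drawn only at ages where both genes were above 3 reads in all libraries.

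Arr3, cone arrestin (Gene ID 170735, chromosome X, 100605497 to 100618493, plus strand), was the last member to mature. It stood at 1.60, 2.11 and 2.21 CPM at E14, 1.43, 2.29 and 2.48 CPM at E17 and 4.05, 2.65, 3.96 and 2.6 CPM at P1. Libraries of E14 and E17 overlapped, and the difference of 0.035 ± 0.15 did not pass the test (adjusted p = 0.954, limma). It then stood at 27.7, 25.3 and 25.1 CPM at P6, 84.2, 78.1, 79.7 and 92.8 CPM at P15, 149, 169, 173 and 155 CPM at P28 and 181 to 247 CPM with a median of 226 at P60. From P1 on, no library of one age overlapped the next. Arr3 rose by 2.67 ± 0.14 between P1 and P6 (adjusted p = 1.29e-16) and by 1.65 ± 0.14 between P6 and P15 (adjusted p = 4.07e-11), and its differences of 0.94 ± 0.13 from P15 to P28 (adjusted p = 1.83e-05) and 0.42 ± 0.12 from P28 to P60 (adjusted p = 0.0216) were under the size threshold.

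Counted over the set, the steps from E14 to P15 held all calls between neighbouring ages. A call needed an adjusted p under 0.05 and a log2 fold change of at least 1, and the share of all 31760 features tested that were called gives the background. From E14 to E17, 8 of 10 members rose, all but Opn1mw and Arr3, against a background of 2.90%, and the median log2 fold change was 1.85 for the members and 0.027 for all features. From E17 to P1, 2 rose (Opn1sw and Pde6h, background 1.23%, medians 0.29 and 0.024), and from P1 to P6, 4 rose (Arr3, Gnb3, Pde6c and Pde6h, background 6.30%, medians 0.69 and -0.027). From P6 to P15, 4 rose (Opn1mw, Arr3, Gnat2 and Pde6h, background 4.74%, medians 0.91 and -0.058) and 1 fell (Gngt2, background 3.31%).

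No member fell by a call at the 3 steps before P6, where 0.702%, 0.614% and 6.74% of all features did (limma; 0, 2 and 0 members were lower at an unadjusted p under 0.05, and edgeR called 0). At the step to P28 and at the step to P60, 0 members rose (background 0.164% and 0.0756%) and 0 fell (background 0.220% and 0.378%). At each of these 2 late steps 4 members were higher and 0 lower at an unadjusted p under 0.05, and edgeR called 0. Over the whole span from E14 to P60, 10 of 10 rose, against a background of 16.4% higher and 19.1% lower, with a median log2 fold change of 4.76 for the members, also with Opn1mw at its lower bound, and -0.094 for all features. The members' own values ran from 1.34 ± 0.10 for Cngb3 to 6.19 ± 0.13 for Arr3 on the log2(CPM + 1) scale.

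**Figure D4:**
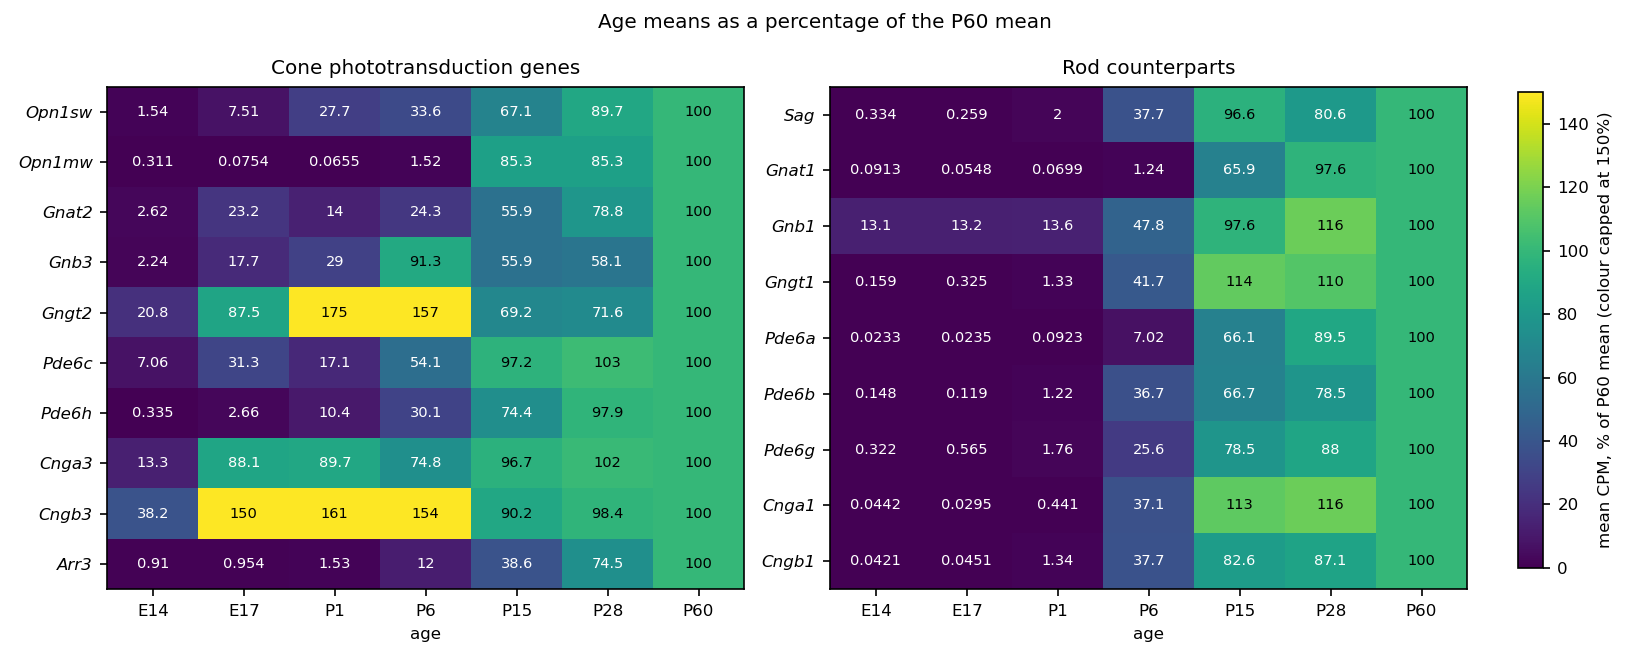
Mean CPM at each age as a percentage of the P60 mean (colour and printed values, colour capped at 150%) for the 10 members (left) and 9 rod counterparts (right). At P6 the members run from 1.52% for Opn1mw to 157% for Gngt2 and the rod genes from 1.24% for Gnat1 to 47.8% for Gnb1.

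The number of members at or above 50% of the P60 mean was 0 at E14, 3 at E17, 3 at P1, 5 at P6, 9 at P15 and 10 at P28. Against P60 replicates 3 to 6 it was 8 at P15 and 9 at P28, since Gnb3 was then under 50%. With median-of-ratios scaling it was 4 at P6, where Pde6c was at 48.2% in place of 54.1% ± 8.7 and passed 50% at P15. Leaving out each library in turn changed no member's age, and of the rod counterparts only Gnb1, at 47.8% ± 5.0 at P6, moved, to P6 in place of P15 without P60 replicate 1. Gnb1 was higher in P60 replicates 1 and 2 than in replicates 3 to 6, and its share was not computed without both. To test whether members stood at different shares of their P60 level, the log2 ratio of every pair was compared between an early age and P60. The test was an exact two-sided permutation test over libraries, adjusted over 45 pairs, and the comparisons share the P60 libraries. Ahead and behind mean a higher and a lower share of the P60 level. At P6 Gngt2 was at 157% and Cngb3 at 154% of it, so the test does not separate an early onset from a later fall. At P6, 39 of 45 pairs differed (the smallest p that 3 against 6 libraries allow is 0.0238, and adjusted p = 0.0275). Opn1mw stood behind all 9 others and Arr3 behind 8, while 0 members stood ahead of Gnb3, Gngt2 or Cngb3 by this test.

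The 6 pairs that did not differ at P6 were Opn1sw and Pde6h, Gnat2 and Pde6h, Gngt2 and Cngb3, and Gnb3 with Gngt2, Cnga3 or Cngb3. At P15, 19 of 45 pairs differed (exact permutation test, smallest p 0.00952, adjusted p from 0.0238 to 0.0451). Arr3 stood behind all 9 others, Gnat2 behind 5 and Opn1sw behind 4, and Cnga3 stood ahead of 4. Without any 1 of the P15 libraries 0 pairs passed, the smallest p then being 0.0238.

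Set against their rod counterparts, most of the cone genes compared stood at a higher share of their adult level at P6. Of 9 cone and rod pairs, 8 differed in their ratio between P6 and P60 (exact permutation test, p = 0.0238, adjusted p = 0.0268). In 7 of them the cone gene stood at the higher share, and for Gngt2 and Cngb3 that share was above the adult level. The largest difference, 4.38 on the log2 scale, was that of Gnat2 against Gnat1: Gnat2 was at 24.3% ± 1.7 of its P60 mean and Gnat1 at 1.24% ± 0.43. The difference was 2.96 for Pde6c against Pde6a, 2.03 for Cngb3 against Cngb1, 1.92 for Gngt2 against Gngt1, 1.02 for Gnb3 against Gnb1, 1.02 for Cnga3 against Cnga1 and 0.55 for Pde6c against Pde6b. For Gnb3 and Gnb1 the P60 libraries split in opposite directions, with replicates 1 and 2 lower for Gnb3 and higher for Gnb1. The size of that difference thus depends on which P60 libraries are used.

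The other way round, Arr3 stood behind Sag, with a difference of -1.63 on the log2 scale. Arr3 was at 12.0% ± 0.66 of its P60 mean at P6 when rod arrestin, Sag, was at 37.7% ± 4.4. Pde6h and Pde6g, the inhibitory subunits of cones and rods, could not be told apart (difference 0.24, exact permutation test, p = 0.429, adjusted p = 0.429), with means of 30.1% and 25.6% of P60. By P15, 3 of 9 pairs differed (adjusted p = 0.0286): Pde6c stood ahead of Pde6a and Pde6b by 0.56 and 0.54, and Arr3 behind Sag (-1.32), while 0 passed without any 1 of the P15 libraries. At P28, 3 of 9 differed (exact permutation test, adjusted p = 0.0286), while 0 passed without any 1 of the P28 libraries. Pde6c stood ahead of Pde6a and Pde6b by 0.20 and 0.38, and Gngt2 stood at a lower share than Gngt1 (-0.60). That lower share followed a fall of Gngt2 and does not show a later onset. Gngt2 was at 157% of its P60 mean at P6 and at 71.6% at P28. Gngt1 was at 41.7% at P6 and at 110% at P28.

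**Figure D5:**
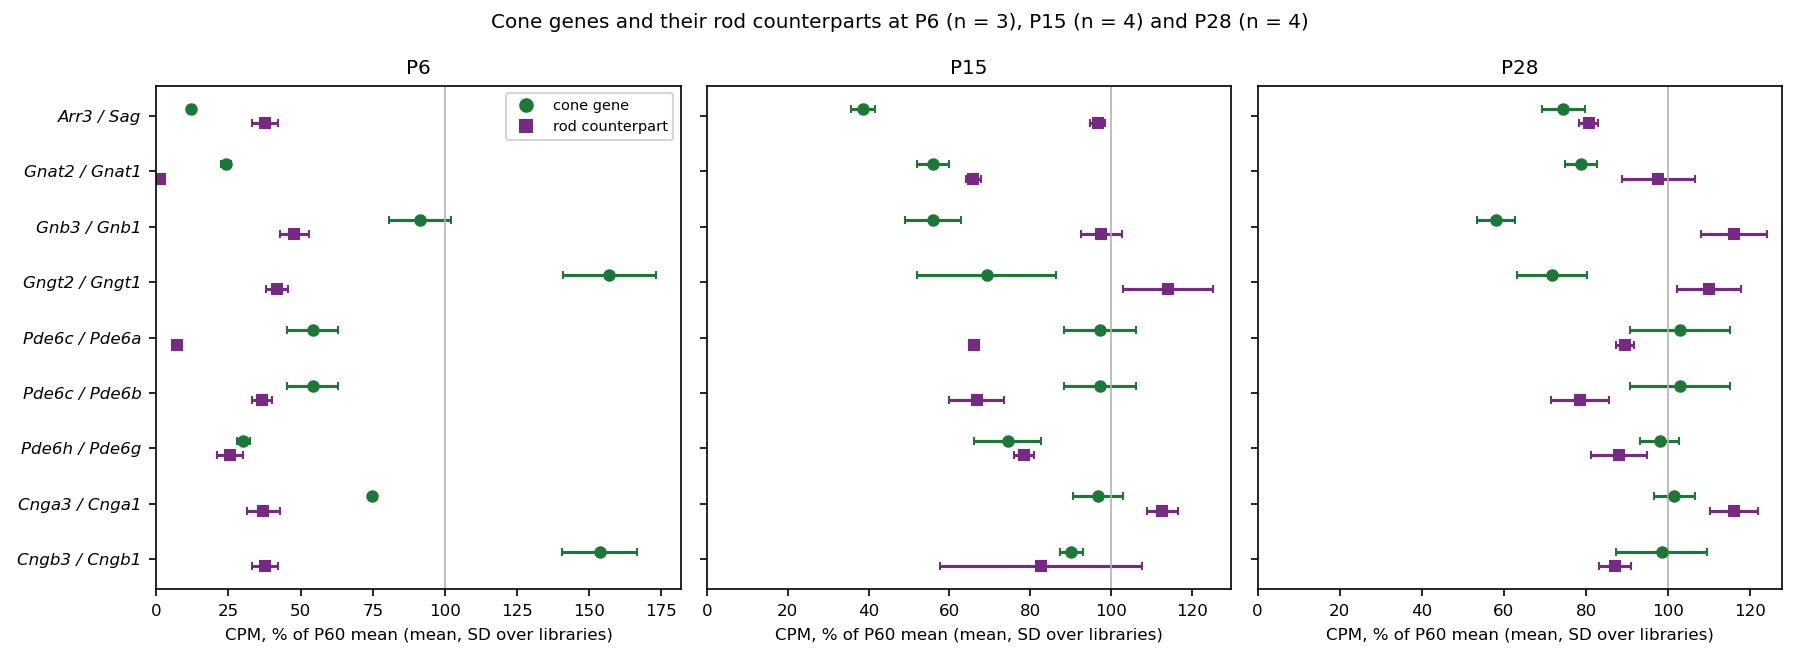
Mean CPM as a percentage of the P60 mean (horizontal axes, from 0; bars are SD over libraries) for cone genes (circles) and their rod counterparts (squares) at P6, P15 and P28. At P6 Gnat2 is at 24.3% and Gnat1 at 1.24%, while Arr3 at 12.0% lies below Sag at 37.7%.

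The steps at which the rod genes rose differed from those of the cone genes. Of the 9 rod counterparts, 0 rose from E14 to E17 (limma; 2 were higher at an unadjusted p under 0.05), 6 at the step to P1, 9 at that to P6 and 8 at that to P15. The 10 members together took 31.2 ± 3.1 CPM (SD, n = 3) at E14, 149 ± 1.4 (n = 3) at E17, 206 ± 22 (n = 4) at P1, 377 ± 18 (n = 3) at P6, 506 ± 18 (n = 4) at P15, 660 ± 23 (n = 4) at P28 and 822 ± 121 (n = 6) at P60. Over the same ages the summed CPM of 8 progenitor markers went from between 5953 and 6202 at E14 to between 549 and 616 at P6 and 147 and 185 at P60, and the part of this change in tissue makeup in the CPM of the members was not tested.

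Genes that end the light response or carry its calcium feedback had most of their calls at the steps from P1 to P15. Of 12 such genes 2 rose by a call from E14 to E17 (Rgs9 and Kcnv2), 4 at the step to P1, 11 at that to P6 and 11 at that to P15. At the step to E17, however, 7 of 12 were higher by the adjusted p. Among them were Grk1 (0.68 ± 0.12, limma, adjusted p = 8.68e-05) and Gucy2e (0.82 ± 0.17, adjusted p = 0.000772), both under the size threshold. Guca1a, which encodes the calcium sensor of the photoreceptor guanylyl cyclases, differed by -0.07 ± 0.20 between E14 and E17 (limma, adjusted p = 0.918) and rose by 1.63 ± 0.18 from P1 to P6 and by 2.85 ± 0.18 from P6 to P15. The opsin kinase gene Grk1 rose by 1.76 ± 0.11, 4.82 ± 0.11 and 2.14 ± 0.11 at the 3 steps from E17 to P15, and the cyclase gene Gucy2e by 2.18 ± 0.16, 4.04 ± 0.16 and 1.45 ± 0.16. Over the whole span the changes in the list ran from 3.31 ± 0.12 for the exchanger gene Slc24a2 to 10.03 ± 0.10 for Grk1. These genes serve rods too.

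The transcription factors of photoreceptors rose in part with the members and fell in part from P6 to P15. Of 10, 6 rose from E14 to E17, when 8 members did, 3 rose and 1 (Thrb) fell from E17 to P1, 3 rose from P1 to P6, and 0 rose and 3 fell from P6 to P15. Crx, which activates genes of both photoreceptor types, rose by 1.11 ± 0.07, 1.16 ± 0.06 and 1.91 ± 0.06 at the 3 steps from E14 to P6, and the rod factors Nrl and Nr2e3 by 2.93 ± 0.09 and 4.03 ± 0.13 from E17 to P1. Rxrg, a retinoid X receptor gene of cones, fell by 1.04 ± 0.25 between P6 and P15 (limma, adjusted p = 0.00139), the step at which Opn1mw rose. Over the whole span the changes in the list ran from -1.62 ± 0.10 for Rorb to 7.60 ± 0.08 for Nrl.

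Among the members themselves, the profile nearest to that of Gngt2 was Cngb3, with a root mean square difference of 0.483 over the 7 ages in log2 share of the P60 mean. Opn1mw was the farthest member for 7 of the other 9, and its own nearest member, Arr3, lay 1.65 away. Outside the lists, the 10 genes nearest to the mean profile of the members, among 10169 with a P60 mean of at least 10 CPM, were Cygb, Grin1, Grin1os, Asic4, Slc6a5, Syt3, Fndc1, Ank1, Kcnk3 and Ahnak2, with differences of 0.187 to 0.296. Cygb, for example, had a mean of 3.89 CPM at E14, 12.0 at E17, 24.4 at P1, 41.1 at P6, 73.9 at P15, 81.1 at P28 and 106 at P60. The mean profile of the members was 3.38% of the P60 level at E14, 12.5% at E17, 17.3% at P1, 36.8% at P6, 70.5% at P15 and 84.7% at P28. It lay between members that were near or above their adult level at E17 and members that were far below it.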

How the data were processed

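Whole retinas were measured by RNA-seq in 27 libraries at 7 ages. Total RNA was made into libraries with a SMARTer total RNA kit, and per the labels each library came from 3 retinas, whereas the methods describe larger pools. The authors aligned reads to mm10 with STAR and deposited CPM values, 1 entry per feature. The annotation and the strand setting of the counting are not given in the sources used here. All values were whole multiples of 1 read, so reads and the read total behind the CPM of each library were recovered from them. Of 38168 features 14905 had no Gene ID, and 926 symbols appeared more than once, of which none was a member.

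The CPM were put on a log2 scale after adding 1. The 31760 features that reached 1 CPM in 3 or more libraries were fitted with limma 3.58.1 (R 4.3.3) with a mean-variance trend and age as the factor, over all 27 libraries. P-values are two-sided and were adjusted by the Benjamini-Hochberg method across every feature fitted. Because 1 is added before the logarithm, fold changes of low genes are understated. Levels between genes were compared only as CPM per kilobase of merged exons from the GENCODE annotation of GRCm38. Ratios of genes were tested as log2 of (CPM + 0.1) by exact permutation over libraries, adjusted within 45 member pairs or 9 cone and rod pairs. P-values measure the spread between libraries of an age. Gene names followed a rule: all members with their rod counterparts, the extremes and some set genes of each list, overlapping genes, and the 10 nearest profiles. Members and lists were chosen with earlier results of these data known, and Trpm1, Gng13, Gnao1, Nyx, Kcnv2, Gpr179, Grm6 and the microglial list after their values were seen. One further rod gene and its pairs are not reported here. The lens markers Cryba4, Crybb1 and Lim2 were not analyzed here. Sequences came from RefSeq tables, where 6 of 10 members matched.

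Alternatives were another pseudocount, other filters, median-of-ratios scaling, a replicate block, edgeR 4.0.16 on recovered reads, fewer ages, no minimum fold change, other reference levels and leaving out libraries. Same-numbered libraries of different ages deviated with a median correlation of -0.0018 (range -0.129 to 0.167, 69 pairs). For differently numbered ones it was 0.0042 (range -0.291 to 0.249, 240 pairs). The labels do not say what the numbers mean, and whether same-numbered libraries shared a batch was not tested. On simulated reads limma found 153 to 166 of 200 changed genes at a log2 fold change of 1.5, with 0 to 4 false calls.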

Additional observations from a re-analysis of the deposited data

Results flagged for a closer look

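Of 40 sets of libraries tested (10 members at the 4 ages with 4 or 6 libraries), 4 held a library far from the others, where chance gives about 1 in 20. Gngt2 in P60 replicate 4 stood at 12.04 CPM, against 7.01 to 8.08 CPM in the other 5 libraries. Pde6h in P15 replicate 4 stood at 80.41 CPM, against 63.9 to 66.1 CPM in the other 3, and in P1 replicate 4 at 8.872 CPM, against 9.93 to 9.96 CPM. Opn1mw in P1 replicate 4 stood at 0.1183 CPM, which is 1 read, against 0 in the other 3 libraries.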

How the results depend on the processing

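Of 663 log2 fold changes of members recomputed under alternatives other than leaving out 1 library, 641 kept their direction and side of the thresholds and 22 passed the thresholds that they had missed, most of them because the minimum fold change was dropped. Of 540 recomputed without 1 library, 535 kept both, 4 came to pass and 1 (Gngt2, P15 against P6, without P15 replicate 2) was lost, and 0 of either kind reversed. With no minimum fold change, 4 members rose (main value 2) and 2 fell (0) from E17 to P1, 3 fell (1) from P6 to P15, 3 rose (0) from P15 to P28 and 2 rose (0) from P28 to P60. With a mean of at least 10 CPM, 0 fell from P6 to P15, since Gngt2 was then not tested. Without P60 replicates 1 and 2, an alternative chosen after seeing the data, 1 member (Gnb3) rose from P28 to P60. With 25% of the P60 mean as the level, 6 members had reached it by P1 against 3 with 50%. Under the replicate block the number of members called was the same at every step, for example 8 from E14 to E17 and 4 from P6 to P15. Leaving out each library in turn gave 0 to 1 members that fell from P6 to P15, 0 to 19 member pairs that differed at P15, and 0 to 4 cone and rod pairs at P15 and at P28. Without 1 P15 or P28 library the smallest p is 0.0238, and without 1 P6 library it exceeds 0.05, so those tests at P6 were not run, nor was a pooled P28 and P60 reference at P28. Over all features, the share of calls that were higher from P28 to P60 was 16.7%, 31.2% with median-of-ratios scaling and 43.8% with edgeR. Depth limits statements on Opn1mw up to P6 and on Pde6h at E14.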
